A study of Homo sapiens with 15 samples.

Results

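Keratinocytes defend the epidermis with secreted antimicrobial peptides and with antiproteases, and 8 genes of this kind were followed here in SCC13 cells. They were chosen by name, as DEFB1, DEFB4A, DEFB103A, CAMP, RNASE7, LCN2, PI3 and SLPI, and every probe whose transcript accession belongs to one of these genes was taken. This gave 8 probes, 1 for each gene, of 50599 probes and 20503 named genes on the array. Of the 8 genes, 2 (DEFB4A and SLPI) were well above background on all 15 arrays, 3 (PI3, DEFB1 and RNASE7) on some arrays and 3 (DEFB103A, CAMP and LCN2) on 0 arrays.

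β-defensins and the cathelicidin are small cationic peptides that disrupt microbial membranes, RNASE7 is a secreted ribonuclease that kills bacteria, and lipocalin 2 (LCN2) withholds iron by binding bacterial siderophores. Elafin (PI3) and the secretory leukocyte protease inhibitor (SLPI) are built from WAP domains, block neutrophil serine proteases such as elastase, and have antimicrobial activity of their own. In skin many of these genes are kept low in resting keratinocytes and are induced by microbial products, by interleukin-1 and interleukin-17 signalling, or during terminal differentiation. LPS, a component of the Gram-negative cell wall, is the ligand of the toll-like receptor TLR4, which signals through MYD88 and NF-κB.

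SCC13 is an established line of human cutaneous squamous cell carcinoma, grown in DMEM with fetal calf serum. The control line (SCC13-pUNO) carried the empty pUNO plasmid and the other line (SCC13-TLR4) carried pUNO-TLR4GFP, a plasmid for TLR4 fused to GFP. Both lines had been selected with blasticidin, so transfection and drug selection were shared by all groups, and the SCC13-TLR4 cells had in addition been sorted for strong GFP signal, so that sorting and the TLR4 plasmid cannot be told apart. Total RNA was measured on 1-colour Agilent arrays in untreated SCC13-pUNO cells (n = 4), untreated SCC13-TLR4 cells (n = 3), and SCC13-pUNO and SCC13-TLR4 cells given ultrapure LPS at 10 µg/ml for 24 h (n = 4 each). Each line came from a single transfection as far as the labels tell, so the line comparison carries whatever else sets these lines apart, and the replicates are cultures of the same transfected cells. The p-values therefore measure the spread between these cultures, which may be partly technical.

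All levels below are log2 intensities relative to the 75th percentile of the same array, so that 0 is the 75th percentile and each unit is a doubling. The 75th percentile itself lay between 192 and 420 intensity units, and 47.1% to 56.2% of the spots of an array were well above background by the scanner's own mark. The 308 negative-control spots of each array had a 95th percentile between -6.55 and -5.54. Of 8 keratinocyte marker genes, 7 were well above background on all 15 arrays, while of the neutrophil and other myeloid markers MPO, ELANE and S100A12 were so on 0 arrays and PTPRC, CSF3R and CD14 on all 15. The summed linear level of the 7 measured myeloid markers was 0.447 to 0.896 on the arrays labelled SCC13-pUNO and 0.566 to 0.877 on the SCC13-TLR4 arrays, so that the lines overlapped. The arrays were printed on 2 slides, each of which held all 4 groups.

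The transfected gene was read first. The TLR4 probe lay between 2.84 and 3.19 on the 7 SCC13-TLR4 arrays and between -6.40 and -3.80 on 7 of the 8 arrays labelled SCC13-pUNO. The array labelled untreated SCC13-pUNO replicate 2 read 3.04, inside the range of the SCC13-TLR4 arrays and against its label. The summed linear level of the erythroid markers, which came almost wholly from HBB where it was high, followed the same split, at 14.4 to 23.9 on the SCC13-TLR4 arrays, 25.0 on the array labelled replicate 2 and 0.185 to 0.272 on the other SCC13-pUNO arrays. AHSP, another erythroid marker, was well above background on 0 arrays. The line and LPS differences that rest on untreated SCC13-pUNO cells are therefore given with and without this array.

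**Figure D1:**
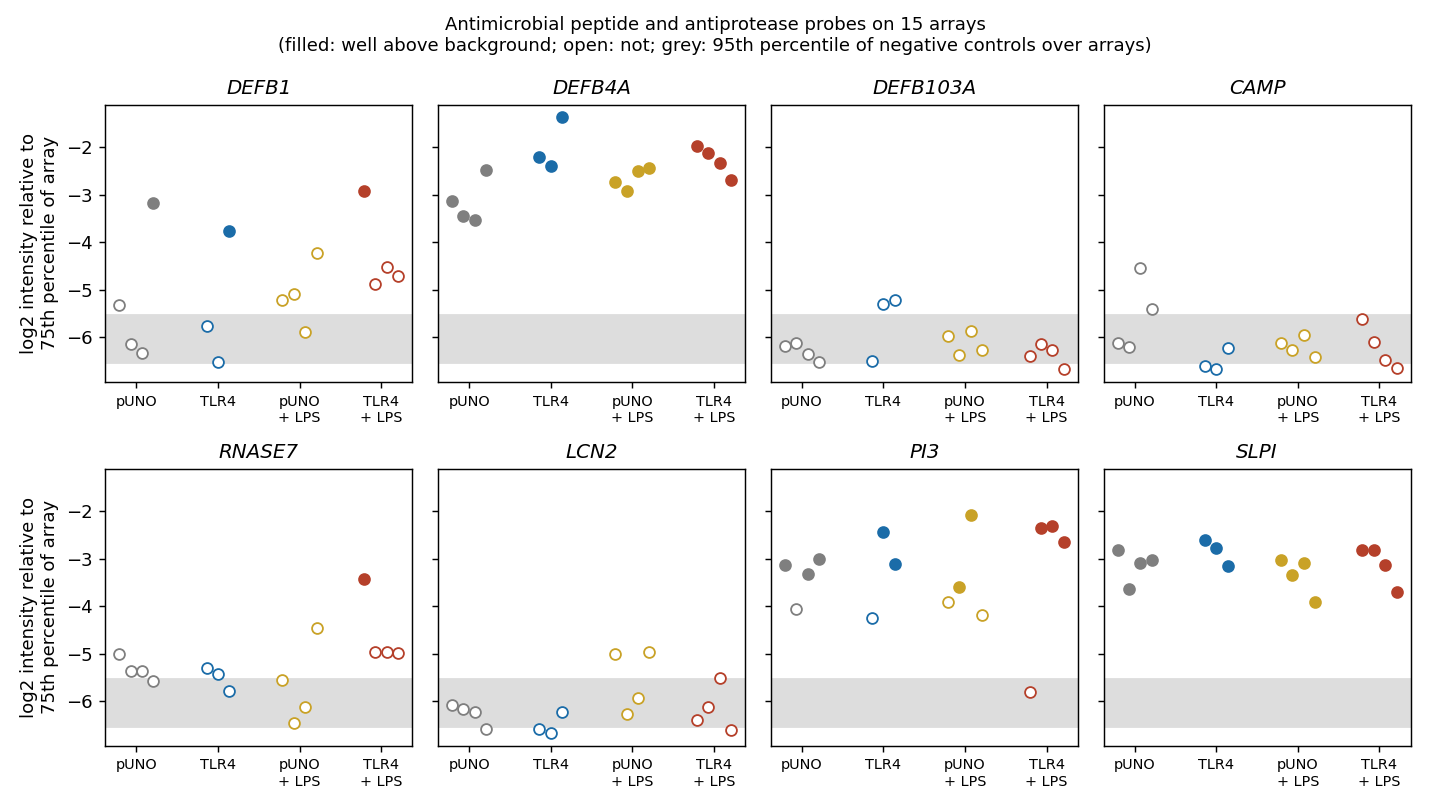
Level of the 8 member probes on each of the 15 arrays (log2 intensity minus that of the array's 75th percentile), by line and treatment. Filled points were well above background and open points were not, and the grey band spans the 95th percentiles of the negative-control spots (-6.55 to -5.54). DEFB4A and SLPI were filled on all 15 arrays, PI3 on 10, DEFB1 on 3, RNASE7 on 1, and DEFB103A, CAMP and LCN2 on 0.

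The first question was whether SCC13 cells express these genes and whether the TLR4 line differs from the control line in LPS-free conditions. DEFB4A, the inducible β-defensin of inflamed epidermis, was measured on every array, with intensities of 27.8 to 143 units. In untreated SCC13-pUNO cells it read -3.13, -3.45, -3.52 and -2.48 on replicates 1 to 4. In SCC13-TLR4 cells without treatment it read -2.20, -2.39 and -1.37 on replicates 1 to 3. All 3 SCC13-TLR4 arrays were above all 4 arrays labelled SCC13-pUNO, so that the groups did not overlap and all 12 pairs of arrays went the same way. For DEFB4A the array labelled replicate 2 (-3.45) lay among the other SCC13-pUNO arrays although its TLR4 level did not. Counted with the SCC13-TLR4 arrays by its TLR4 level, that array would lie below SCC13-pUNO replicates 1 and 4. The groups would then overlap, so that the separation depends on the label of this array. The closest pair were SCC13-TLR4 replicate 2 at -2.39 and SCC13-pUNO replicate 4 at -2.48.

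The group means for DEFB4A were -1.98 ± 0.54 (SD, n = 3) in SCC13-TLR4 and -3.14 ± 0.48 (SD, n = 4) in SCC13-pUNO cells. The difference was 1.16 on the log2 scale (SE 0.28, per-probe 95% interval 0.55 to 1.77), or 2.24-fold in favour of SCC13-TLR4. In limma, an analysis of all probes together with moderated variances, the unadjusted p was 0.00120, which ranked 12 of 22685 tested probes, and the adjusted p was 0.999. The exact two-sided permutation p was 0.0571, with 35 possible splits and a smallest possible p of 0.0286. The difference therefore did not pass the threshold of 0.05 by either test. Groups that do not overlap and are higher in SCC13-TLR4 were found for 2.1% of the probes with values on all of these arrays, and DEFB4A is 1 of 472 such probes. Without the array labelled replicate 2 the difference was 1.06 (SE 0.31, 95% interval 0.40 to 1.72), the limma adjusted p was again close to 1 at 0.9997, and non-overlap was seen for 4.13% of probes. The exact permutation p was then 0.1, the smallest that 20 splits allow.

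The 2 slides gave different sizes for DEFB4A. Within slide 1 the single untreated SCC13-TLR4 array was 1.17 above the mean of 3 SCC13-pUNO arrays, and 1.13 above it when the array labelled replicate 2 was left out. Within slide 2 the 2 SCC13-TLR4 arrays were on average 0.60 above the only SCC13-pUNO array. With slide as a factor the difference was 1.07 (SE 0.29, limma adjusted p = 0.895). A normexp background correction, which added 50 intensity units to every spot, lowered it to 0.52 (SE 0.17, limma adjusted p = 1.00). That offset is near the size of the DEFB4A signal (27.8 to 143 units) and by itself shrinks log2 differences. Its part in this and the other normexp values below was not tested.

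With LPS the line difference in DEFB4A was smaller. SCC13-pUNO cells read -2.72, -2.92, -2.50 and -2.43 and SCC13-TLR4 cells -1.97, -2.13, -2.33 and -2.69. The groups overlapped, because SCC13-TLR4 replicate 4 fell below SCC13-pUNO replicates 3 and 4, and 14 of 16 pairs were higher in SCC13-TLR4. The means were -2.28 ± 0.31 (SD, n = 4) and -2.64 ± 0.22 (SD, n = 4), a difference of 0.36 (SE 0.26, 95% interval -0.20 to 0.93) with a limma adjusted p of 0.9997 and an exact permutation p of 0.114. Within slide 1 the difference was 0.77 and within slide 2 it was -0.05. With the normexp correction it was 0.05 (SE 0.16).

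Averaged over both treatments, DEFB4A was 0.76 higher in SCC13-TLR4 (SE 0.19, 95% interval 0.35 to 1.18), a 1.70-fold difference. Its limma unadjusted p of 0.00159 ranked 50 of 22685 and its adjusted p was 0.721. A two-sided exact permutation of the line labels within each treatment gave a p of 0.00612, or 0.0612 after Benjamini-Hochberg adjustment over the 10 permutation tests made on DEFB4A and SLPI. Without the array labelled replicate 2 the difference was 0.71 (SE 0.20), and the exact permutation p was 0.00857. With the normexp correction it was 0.29 (SE 0.12), or 1.22-fold. The line difference in DEFB4A was thus positive in both treatments and below 0 only within slide 2 with LPS, and it did not survive correction over the array.

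LPS itself moved DEFB4A by less than its interval in either line. In SCC13-pUNO cells the level with LPS minus the untreated level was 0.50 (SE 0.26, 95% interval -0.07 to 1.07, limma adjusted p = 0.9996), and 0.40 without the array labelled replicate 2. In SCC13-TLR4 cells it was -0.30 (SE 0.28, 95% interval -0.91 to 0.31, limma adjusted p = 1.00). The response in SCC13-TLR4 minus that in SCC13-pUNO was -0.80 (SE 0.39, 95% interval -1.63 to 0.04) with a limma adjusted p of 0.9998, and -0.70 without that array. These contrasts share the untreated arrays with the line comparison, so that the low untreated SCC13-pUNO values enter both.

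Ordered by mean, DEFB4A stood highest in untreated SCC13-TLR4 cells, then SCC13-TLR4 with LPS, SCC13-pUNO with LPS and untreated SCC13-pUNO cells. None of the neighbours in this order differed beyond its spread, with exact permutation p-values of 0.486, 0.114 and 0.143. The last of these was 0.257 without the array labelled replicate 2. Among SCC13-pUNO arrays the level also went with the slide, from -3.52 to -2.72 on the 5 arrays of slide 1 and from -2.50 to -2.43 on the 3 arrays of slide 2. The SCC13-TLR4 arrays showed no such order, with values from -2.20 to -1.97 on slide 1 and from -2.69 to -1.37 on slide 2. This probe is annotated to DEFB4A alone. Probe sequences were not examined, so signal from the near-identical gene copy DEFB4B cannot be told apart from that of DEFB4A.

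**Figure D2:**
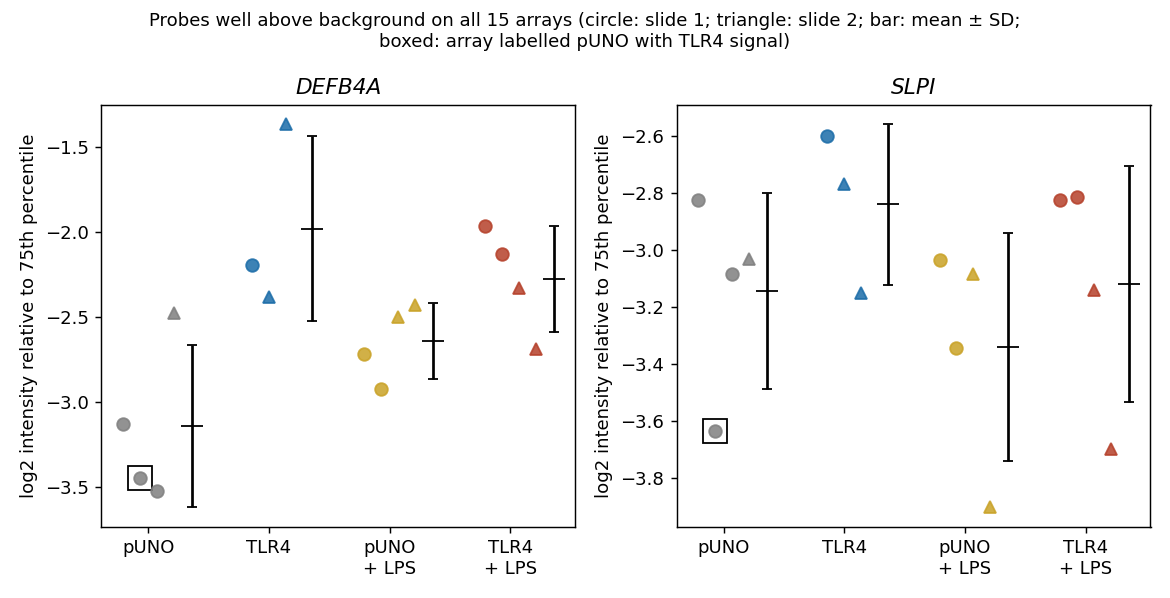
Level of DEFB4A and SLPI on each array (log2 intensity relative to the 75th percentile), with circles for slide 1, triangles for slide 2, bars for mean ± SD, and a box around the array labelled untreated SCC13-pUNO that carried TLR4 signal. For DEFB4A the 3 untreated TLR4 points lie above all 4 points labelled untreated pUNO, the boxed one included, whereas the 2 LPS groups overlap. For SLPI all groups overlap.

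SLPI, the other member on every array, had intensities of 18.9 to 54.0 units and showed no such separation. It read -2.83, -3.64, -3.09 and -3.03 in untreated SCC13-pUNO cells, and -2.60, -2.77 and -3.15 in untreated SCC13-TLR4 cells. After LPS the values were -3.03, -3.34, -3.08 and -3.91 in SCC13-pUNO and -2.82, -2.82, -3.14 and -3.70 in SCC13-TLR4 cells. All 4 groups overlapped, and the lowest value of each LPS group came from replicate 4.

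The untreated line difference in SLPI was 0.30 (SE 0.27, 95% interval -0.27 to 0.88, limma adjusted p = 0.999), and 0.14 (95% interval -0.44 to 0.72) without the array labelled replicate 2, which held the lowest untreated value. With LPS it was 0.22 (SE 0.25, 95% interval -0.31 to 0.76). LPS minus untreated was -0.20 (SE 0.25) in SCC13-pUNO, or -0.36 without that array, and -0.28 (SE 0.27) in SCC13-TLR4 cells. The interaction was -0.08 (95% interval -0.87 to 0.70). The limma adjusted p was above 0.99 for each of these SLPI contrasts, and the intervals still allow a line difference in untreated cells of up to 1.84-fold. Within slides the untreated line difference was 0.58 and 0.07 for slides 1 and 2, and 0.35 for slide 1 without that array, and with LPS it was 0.37 and 0.07. Across the 15 arrays the levels of SLPI and DEFB4A had a Pearson r of 0.28, as a description of points that share arrays and slides.

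PI3 encodes elafin, which is absent from healthy interfollicular epidermis and appears in inflamed skin. Its signal stood well above background on 10 of 15 arrays, namely 3 of 4 untreated SCC13-pUNO, 2 of 3 untreated SCC13-TLR4, 2 of 4 SCC13-pUNO with LPS and 3 of 4 SCC13-TLR4 with LPS. Because no group had it on all its arrays, it did not pass the filter and was not tested. It read -3.13, -4.05, -3.33 and -3.02 in untreated SCC13-pUNO and -4.26, -2.45 and -3.11 in untreated SCC13-TLR4 cells. After LPS the values were -3.91, -3.60, -2.08 and -4.19 in SCC13-pUNO and -5.82, -2.36, -2.30 and -2.64 in SCC13-TLR4 cells. The spread within groups was far wider than the gaps between them, with group means from -3.44 to -3.27 and an SD of 1.70 in SCC13-TLR4 cells with LPS. With no filter the untreated line difference was 0.11 (SE 0.79, 95% interval -1.59 to 1.81) and the one with LPS 0.16 (SE 0.73). The untreated SCC13-pUNO array on which PI3 was not well above background was the one labelled replicate 2, so that PI3 passes the filter when this array is left out before filtering, a choice made after seeing the data. The untreated line difference then turned to -0.11 (SE 0.84, 95% interval -1.95 to 1.72, limma adjusted p = 0.9997). PI3 and SLPI lie in the same WAP gene cluster on chromosome 20, with SEMG1 and SEMG2 as the only protein-coding genes between them in the RefSeq order, and both of these were well above background on 0 arrays. PI3 and SLPI did not vary together, at a Pearson r of 0.03 over 15 arrays.

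DEFB1, the β-defensin that most epithelia express constitutively, was well above background on 3 of 15 arrays. These were untreated SCC13-pUNO replicate 4 at -3.17, untreated SCC13-TLR4 replicate 3 at -3.76 and SCC13-TLR4 with LPS replicate 1 at -2.93. The remaining DEFB1 values ran from -6.52 to -4.23, and 11 of 15 arrays exceeded the 95th percentile of their negative controls. The 3 arrays belonged to 3 different groups, and no fold is given because at most 1 array of a group measured DEFB1.

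RNASE7, abundant in normal stratum corneum, was well above background on 1 array, SCC13-TLR4 with LPS replicate 1, at -3.42. The other 3 arrays of that group read -4.97, -4.96 and -5.00. The values of the other groups ran from -6.46 to -4.47, and 13 of 15 arrays exceeded their negative controls' 95th percentile. No fold is given for RNASE7 either, since 1 of the 4 arrays of its group measured it. That array also held the highest DEFB1 and the lowest PI3 value of all 15 and had the largest share of spots well above background, 56.2%, and the part of that share in these values was not tested.

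DEFB103A, a β-defensin with broad activity against Gram-positive bacteria, CAMP, the cathelicidin precursor, and LCN2 were not well above background on any array. DEFB103A ran from -6.67 to -5.21, CAMP from -6.68 to -4.54 and LCN2 from -6.67 to -4.96. Each of these genes exceeded the negative-control 95th percentile on 3 of 15 arrays. For DEFB103A these were the 3 untreated SCC13-TLR4 arrays, at -6.50, -5.29 and -5.21. The first of these barely passed, because the 95th percentile of that array was -6.50 as well. The probe of the near-identical copy DEFB103B had another pattern. It exceeded that percentile on 1 of 3 untreated SCC13-TLR4 arrays and 3 of 4 with LPS, and on 1 of 4 untreated SCC13-pUNO arrays and 0 of 4 with LPS. For CAMP the 3 arrays included untreated SCC13-pUNO replicates 3 and 4, at -4.54 and -5.40. For LCN2 they included SCC13-pUNO with LPS replicates 1 and 4, at -5.00 and -4.96. No fold is given for these genes, and a lower level than the arrays can resolve cannot be told from no expression. In such bulk RNA, fewer expressing cells and less RNA per cell cannot be told apart.

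Counted over the list, 2 of 8 members passed the filter, which asks for a signal well above background on all arrays of 1 group or more, and 0 of the 2 were called at an adjusted p of 0.05 by limma in any of 6 comparisons. Over all 22685 tested probes the called share was 0% for the line difference in untreated cells, 0% with LPS, 0.022% (5 probes) for the mean of both, and 0% for LPS in either line and for the interaction. Without the array labelled replicate 2 it was 0.0309%, 0.0441% and 0.101% for the 3 line comparisons, and 0% for the LPS comparisons. At an unadjusted p under 0.05, limma gave DEFB4A in the untreated and in the mean line comparison, beside 566 and 982 of all probes. The 2 tested members had a median line difference of 0.73 untreated, 0.29 with LPS and 0.51 for the mean. Over all tested probes the medians were -0.02, -0.01 and -0.01. Each member median is only the midpoint of DEFB4A and SLPI, with DEFB4A the larger, and describes no wider set. Without the array labelled replicate 2 the untreated differences were 1.06 for DEFB4A and 0.14 for SLPI.

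**Figure D3:**
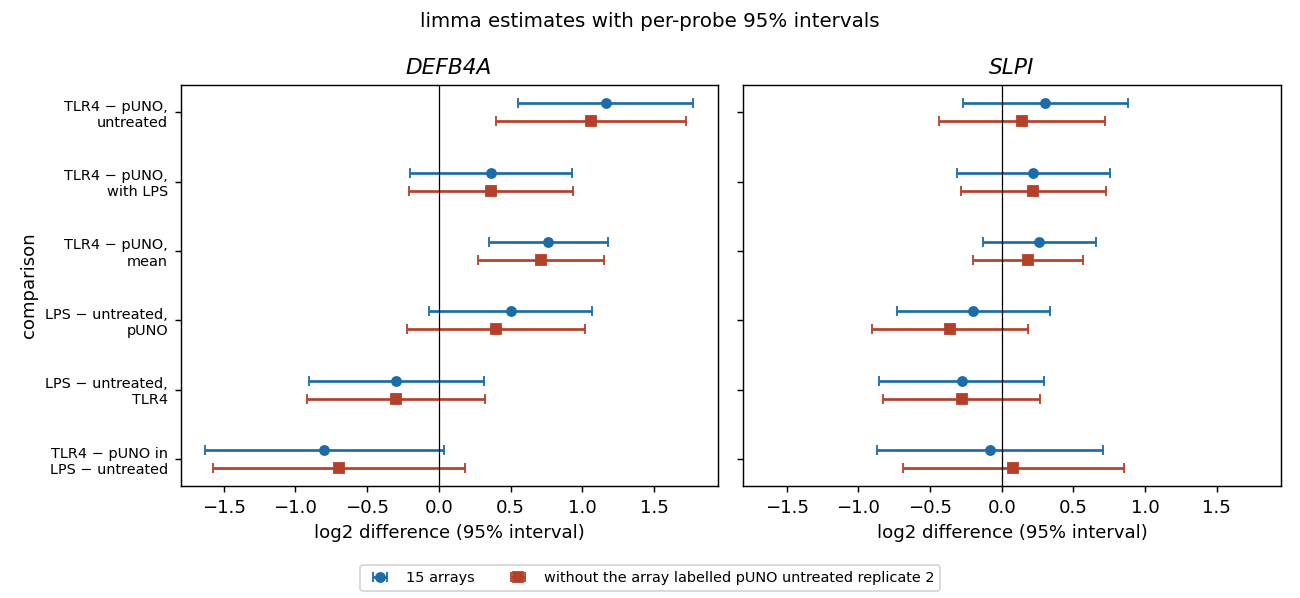
Difference in DEFB4A (left) and SLPI (right) for 6 comparisons on the log2 scale, with per-probe 95% intervals from limma, for 15 arrays (circles) and with untreated SCC13-pUNO replicate 2, as labelled, left out (squares). The DEFB4A intervals for the untreated (0.55 to 1.77) and mean (0.35 to 1.18) line differences lie above 0 before correction over all probes, and every SLPI interval spans 0.

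Of 121 related genes in 6 lists, 60 were tested, beside 2 of the 8 members. Of 20 other antimicrobial proteins of epithelia, 4 were tested, and the calprotectin subunits S100A8 and S100A9, psoriasin S100A7 and the chemokine CCL20 were well above background on 2, 0, 1 and 0 arrays. Of 13 other WAP-domain genes, 2 were tested and 8 were on 0 arrays. Other epidermal antiproteases were better represented, with 15 of 23 tested. Among these, cystatin A (CSTA), a cysteine protease inhibitor of the cornified envelope, differed by 0.80 (SE 0.61) between the untreated lines, and SPINK5, the inhibitor of epidermal kallikreins, by -0.17 (SE 0.11). Without the array labelled replicate 2 these differences were 0.58 (SE 0.65) and -0.15 (SE 0.12). With slide as a factor too, they were 0.11 (SE 0.29) for CSTA and -0.11 (SE 0.09) for SPINK5. SERPINB3 was well above background on 1 array.

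Of 13 proteases that these inhibitors block or that process the peptides, 8 were tested. KLK5 and KLK7, the kallikreins that cleave the cathelicidin precursor in skin, differed by -0.22 (SE 0.20) and -0.25 (SE 0.18) between the untreated lines. Leaving out that array gave -0.20 (SE 0.22) for KLK5 and -0.34 (SE 0.19) for KLK7. Adding slide as a factor moved these to -0.05 (SE 0.08) and -0.25 (SE 0.13). KLK7 differed by -0.38 (SE 0.17) with LPS. Of 27 inducers and regulators of antimicrobial peptides 18 were tested. IL1B, an inducer of DEFB4A in keratinocytes, differed by 0.44 (SE 0.15) between the untreated lines and by -0.07 (SE 0.14) with LPS, and NFKBIZ, which encodes an NF-κB cofactor for these genes, differed by -0.15 (SE 0.31) and -0.41 (SE 0.28). Leaving out the same array moved the untreated difference to 0.49 (SE 0.16) for IL1B and to -0.30 (SE 0.32) for NFKBIZ. The limma adjusted p was 0.9997 for both. Adding slide as a factor gave 0.42 (SE 0.13) for IL1B and -0.27 (SE 0.34) for NFKBIZ. IL36G was well above background on 1 array. Of 25 genes of the TLR4 pathway and its LPS response 13 were tested, and CXCL8 was well above background on 0 arrays.

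Over these 6 lists and all 15 arrays, 1 gene was called, TLR4 itself in the mean line difference (7.59, SE 1.08, limma adjusted p = 0.0485). Without the array labelled replicate 2, TLR4 was called in the untreated (8.41, SE 0.54), the LPS (8.86, SE 0.47) and the mean line difference (8.63, SE 0.36). The limma adjusted p-values were 1.40e-05, 1.38e-06 and 7.32e-08, against 0.999 (untreated) and 0.312 (LPS) with all arrays. That array was set aside for its TLR4 level, so these calls of the transfected gene follow from that choice and are no separate evidence. CXCL1, a neutrophil-attracting chemokine that NF-κB induces, was also called in the mean line difference without that array, at 0.98 (SE 0.14, limma adjusted p = 0.0168). With all arrays that CXCL1 difference was 0.86 (SE 0.17, limma adjusted p = 0.227). Its line difference was 0.90 (SE 0.21) untreated and 1.06 (SE 0.18) with LPS without that array, at limma adjusted p-values of 0.998 and 0.102, and the second of these was 0.0243 when slide was a factor too. The list medians ran from -0.12 to 0.10 for the untreated line difference and from -0.09 to 0.06 with LPS, and from -0.13 to 0.09 and -0.05 to 0.05 for LPS in SCC13-pUNO and SCC13-TLR4 cells, beside medians of -0.01 over all tested probes for both LPS comparisons. Without the array labelled replicate 2 they ran from -0.16 to 0.17 for the untreated line difference and from -0.10 to 0.08 for LPS in SCC13-pUNO cells. Of 7 differentiation markers 4 were tested and 0 were called. KRT10 and TGM1 were well above background on all 15 arrays, IVL on 14, SPRR1B on 13, FLG on 4, LORICRIN on 1 and KRT1 on 0.

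Genes that followed the detected members most closely were found by Pearson's r over 15 arrays after subtracting each slide's mean, among 15404 probes. For DEFB4A they included LOC389834 (r = 0.83) and NTF4 (r = 0.83). For SLPI they were TUSC1 (r = 0.90), GUSBP1 (r = 0.84) and PRR7 (r = 0.82). They are the highest of many correlations over few arrays and are given as a description only. LOC389834 fell to r = 0.10 with DEFB4A when slide means were kept.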

How the data were processed

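RNA of 15 cultures was hybridised to SurePrint G3 Human arrays (Cy3). The authors deposited scanner intensity values from Feature Extraction (10.7.3.1, per the file headers), already background-subtracted, and the deposited value table equals these processed intensities on 100% of spots. Control and outlier spots were left out, log2 intensities were centred on each array's 75th percentile, and spots of a probe were averaged. No spot was saturated. Probes were named by accession through the RefSeq table of GRCh38.p14 (28174 of 50599 had a symbol). The array design used another build, so no coordinates are given.

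Probes that the scanner marked well above background throughout 1 group or more (22685) were fitted with limma (3.58.1, R 4.3.3) in 4 groups, with Benjamini-Hochberg adjustment, and the script was tested on simulated data. The study's further requirement of a log2 change above 2 was not applied, since no member was called. For DEFB4A and SLPI, exact two-sided permutation tests were also made. Alternatives covered scaling, background correction, filters, array weights, slide, the replicate block and leaving out each array. All member probes were named, related genes by fixed lists. Members and lists were chosen with earlier results of these data known. A result of the likeness ranking is not reported here.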

Additional observations from a re-analysis of the deposited data

Results flagged for a closer look

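In 2 of 24 member-and-group sets of 4 arrays, 1 array lay far from the other 3 by Dixon's criterion, which chance meets in about 1 in 20 sets. Both concern SCC13-TLR4 with LPS replicate 1. RNASE7 read -3.42 there and -5.00 to -4.96 on the other 3 arrays. PI3 read -5.82 there and -2.64 to -2.30 on the other 3. Neither gene passed the filter on all 15 arrays. With no filter the line difference with LPS was 0.16 for PI3 (SE 0.73). None is given for RNASE7, which was well above background on 1 array.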

How the results depend on the processing

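Across 28 or 29 alternatives for each of 6 comparisons, 0 members were called, and the lowest limma adjusted p for a member was 0.0539 (DEFB4A between the untreated lines with array weights, difference 1.45). Over these alternatives the untreated line difference in DEFB4A ran from 0.52 to 1.45, and from 0.85 to 1.38 when each array was left out in turn. With the replicate block, the replicate number as a factor, it was 1.21 (adjusted p = 0.461) and changed no member's call. Deviations from the group means had a median r of 0.35 between same-numbered arrays of different groups (above 0.1 in 15 of 21 pairs, lowest -0.54) and of -0.23 between differently numbered ones (above 0.1 in 26 of 63). For 8 of 15 arrays the closest array of another group had the same number. Since not every same-numbered pair was above 0.1, the numbers were not taken to pair the samples. All arrays numbered 1 lay on slide 1 and all numbered 4 on slide 2. The correlations were not split by slide, so that pairing and slide cannot be told apart here. Of 344 member values 11 changed sign, none of them called in either direction. With normexp, SLPI became -0.0496 for the line difference with LPS and 0.0688 for LPS in SCC13-pUNO cells. The SLPI interaction became 0.0309 with the replicate block and 0.118 with array weights, was 0.0801 when the filter was set again without the array labelled untreated pUNO 2 (chosen after seeing the data), and ran from -0.27 to 0.11 as each array was left out. The LPS difference of DEFB4A in SCC13-TLR4 cells ran from -0.50 to 0.011 in the same way, the upper end without untreated replicate 3. The causes were not tested. Precision is limited by how many arrays there were, and members near background have no usable difference.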

Other observations

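DEFB103B, a near-identical copy of DEFB103A with a probe of its own, was well above background on 1 of 15 arrays, SCC13-TLR4 with LPS replicate 1, at -3.88. The other 3 arrays of that group read -5.09, -4.90 and -6.62. The ranges were -6.26 to -6.05 in SCC13-pUNO cells with LPS, -6.70 to -5.53 in untreated SCC13-pUNO and -6.68 to -5.97 in untreated SCC13-TLR4 cells. The DEFB103B probe exceeded the negative-control 95th percentile on 1 of 3 untreated SCC13-TLR4 arrays and 3 of 4 with LPS. On the SCC13-pUNO arrays it did so on 1 of 4 untreated and 0 of 4 with LPS. The second TLR4 probe of the array was well above background on 0 arrays and ran from -6.63 to -4.96.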
